A study of Arabidopsis thaliana with 18 samples.

Results

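The 200 loci described here were high 3 h after cutting in mock-treated root tips of Arabidopsis thaliana and lower again by 6 h. They were chosen from 22093 counted loci by a rule on the mock libraries alone. Levels are CPM, counts of a locus scaled to the same total of reads on genes in every library, and group levels are means of log2(CPM + 1). The value r3 is the level in 3 h mock cut tips minus that in mock uncut tips, and r6 is the same difference for 6 h mock cut tips. A locus had to have its lowest mock cut 3 h library above its highest mock uncut library, an r3 of at least 1.5 and an r6 under r3/2. The first condition held for 1691 loci, or 7.65% of all, and 463 of these had an r3 of 1.5 or more. All conditions held for 217 loci, of which the 200 with the highest r3 were kept. The last locus kept was the profilin gene PRF4 (r3 of 1.56) and the next one left out was the calcium-dependent kinase gene CPK32 (r3 of 1.55). Over the members r3 has a median of 2.08 and a highest value of 5.45 (LTI78), and r6 a median of 0.64. These values chose the members and are no finding. Of the members, 95 have a gene symbol, 196 are in the RefSeq gene table, and 134 had a mean of 10 CPM or more in 3 h mock cut tips.

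Wounding a plant sets off calcium influx, reactive oxygen and jasmonate synthesis, and within hours changes the mRNA of many stress, defence and cell wall genes. Many of these mRNAs are short-lived, so their levels can come down again while the wound is still healing. A root whose tip has been cut off can form a new tip, and auxin is known to be needed for this.

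The groups were L-Kyn cut tips, with 2 libraries for 3 h and 3 for 6 h, L-Kyn uncut tips, with 3 for 3 h and 2 for 6 h, mock cut tips, with 3 for 3 h and 2 for 6 h, and mock uncut tips (3), for which no hours are stated. Seedlings were 7 days old, the cut was made 120 µm above the quiescent centre, and L-Kyn (L-kynurenine), which blocks the tryptophan route of auxin synthesis, was given at 100 µM. No genotype is named in the labels. The labels count hours after the cut for mock tips and hours of treatment for L-Kyn tips, and do not say when those were cut. Because the rule used the mock libraries, tests below compare L-Kyn tips with each other, and values that involve mock tips are a description. The comparison asks how these members behave in cut tips when auxin synthesis is inhibited.

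Libraries held 1280947 to 4839810 reads on genes, and 3 counts are worth 0.62 to 2.34 CPM. The library labelled as L-Kyn cut 3 h replicate 2 stood apart. Over 14231 loci its Spearman correlation was 0.929 to 0.969 with the L-Kyn uncut 3 h libraries and 0.856 with L-Kyn cut 3 h replicate 1. Results are therefore given with and without it. Since it was singled out for its likeness to uncut tips, leaving it out favours calls of a cut difference at 3 h. The median edgeR log2 fold change of the members tested at 3 h was 1.94 without replicate 2. It was -0.33 when replicate 1 was left out instead. Leaving replicate 2 out keeps 1 library of 3 h L-Kyn cut tips, whose spread is taken to be that of the other groups. L-Kyn uncut 6 h replicate 1 is uncut by its title and cut by its source field, and the title was used. In the order of the table, all 6 h libraries and mock uncut replicates 1 and 2 form one set, and all 3 h libraries and mock uncut replicate 3 another. Hours and set cannot be told apart. The labels name no separate cultures or pools behind the libraries, so the spread that p-values measure may be technical.

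In the library means the members were high in cut tips at 3 h and intermediate in cut tips at 6 h, with one exception. The mean of log2(CPM + 1) over the 200 members was 4.28 in L-Kyn cut 3 h replicate 1 and 2.30 in the library labelled replicate 2, against 2.44, 2.47 and 2.41 in 3 h L-Kyn uncut tips. It was 2.80, 2.97 and 3.01 in 6 h L-Kyn cut tips, against 2.31 and 1.99 in 6 h L-Kyn uncut tips. Mock cut tips had 4.48, 4.35 and 4.29 at 3 h and 2.76 and 2.72 at 6 h, against 2.40, 2.02 and 1.98 in mock uncut tips. Replicate 1 of 3 h L-Kyn cut tips thus lay at the level of the mock cut tips that chose the members, and replicate 2 among the uncut tips. Over all 22093 loci the same mean stayed between 3.09 and 3.33 in the 18 libraries. In such bulk samples fewer cells of a type and less RNA per cell cannot be told apart.

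**Figure D1:**
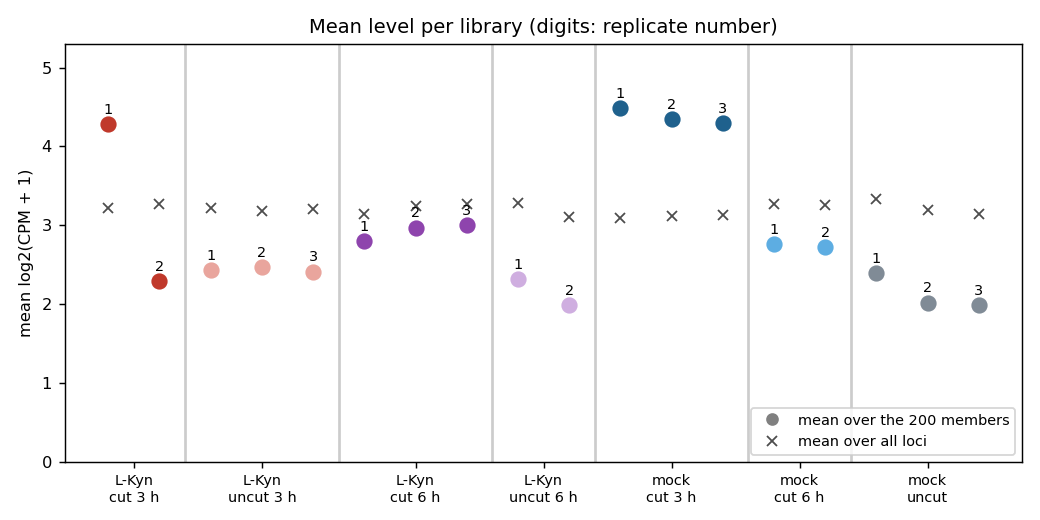
Mean log2(CPM + 1) over the 200 members (circles, digits give the replicate) and over all 22093 loci (crosses) in each of the 18 libraries by group. L-Kyn cut 3 h replicate 1 sits at 4.28, with the mock cut 3 h libraries, and the library labelled replicate 2 at 2.30, among the uncut tips.

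**Figure D2:**
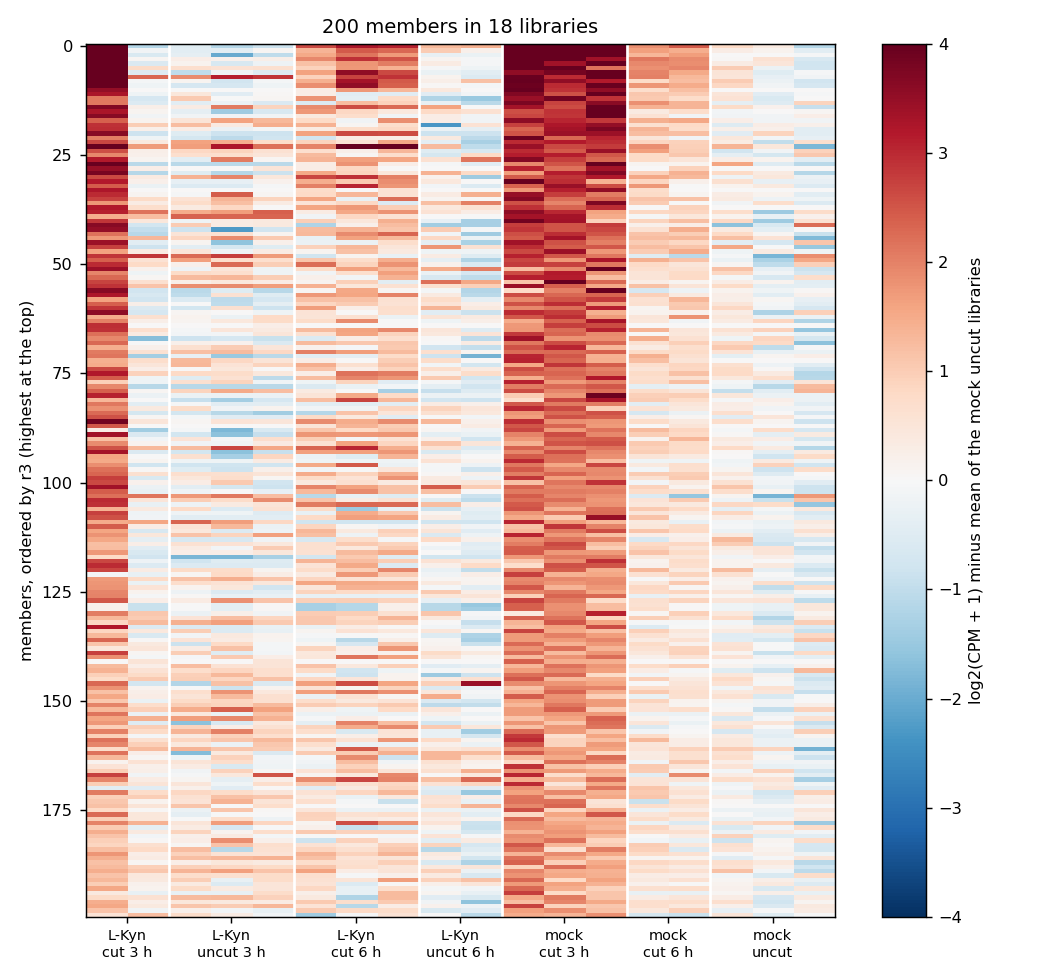
Level of each of the 200 members (down the page, in order of r3) in each of the 18 libraries, as log2(CPM + 1) minus the mean of the mock uncut libraries, with colours cut off at 4 and -4. The mock cut 3 h columns are red by the rule, L-Kyn cut 3 h replicate 1 is red over most of the page, and the L-Kyn cut 6 h columns are paler.

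At 3 h most members were higher in the first L-Kyn cut library than in uncut tips, and few in the second. L-Kyn cut replicate 1 lay above the 3 L-Kyn uncut 3 h libraries for 172 of 200 members, where 30.2% of all loci did, and below them for 7, where 28.7% did. The library labelled replicate 2 lay above them for 31 members, where 29.3% of all loci did, and below them for 62, where 16.7% did. Both L-Kyn cut libraries lay above the uncut ones for 29 members, against 10.3% of all loci, and below them for 4, against 6.27%. The median difference over the members was 1.65 on the log2(CPM + 1) scale for replicate 1, with a range of -0.89 to 7.02, and -0.09 for replicate 2, against 0 and 0.06 over all loci. In the fit of all 10 L-Kyn libraries edgeR called 0 members and 0 of 16406 loci (0%) in either direction at an adjusted p under 0.05, with 70 of the 162 members tested at an unadjusted p under 0.05, where 4.05% of all loci were. DESeq2 called 12 members higher there, against 0.219% of loci. Without the library labelled replicate 2 edgeR called 96 of the 200 members higher and 0 lower, against 3.23% of 17270 loci higher and 1.95% lower. Of the members, 187 passed the expression filter there, some of them through the single cut library alone, and with no filter 108 of 200 were called, against 3.15% of 22043 loci.

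At 6 h many members were still higher in cut than in uncut L-Kyn tips. L-Kyn cut tips lay above L-Kyn uncut tips in every library for 90 of 200 members, where 16.5% of all loci did, and below for 6, where 17.3% did. The median difference was 0.75 on the log2(CPM + 1) scale, against 0 over all loci. It was positive for 162 members. Of the members, 83 had L-Kyn cut tips above uncut tips at 6 h and replicate 1 above them at 3 h, against 9.81% of loci. In the fit of all 10 libraries edgeR called 4 members higher, against 0.823% of loci, and 0 lower, against 0.524%. These were HCA2, a Dof factor gene, the peroxidase gene AT2G37130, AT2G36320 and AT1G74055. AT2G36320 codes for an A20/AN1 zinc finger protein and AT1G74055 for an uncharacterized protein. DESeq2 called 19 members higher, against 640 of 16406 loci, and edgeR with no filter 15, against 391 of 22065. The 4 became 0 without any one of the 5 L-Kyn uncut libraries or of L-Kyn cut 6 h replicates 2 and 3. Without the library labelled as L-Kyn cut 3 h replicate 2, which is in neither group but shares the estimate of spread, 49 members were called higher and 1 lower, against 5.62% of loci higher and 5.12% lower. With the 5 libraries of the 2 groups alone 38 members were called higher, against 3.9% of 14607 loci, and 0 lower, against 2.93%, and all 38 are among the 49. Without L-Kyn uncut 6 h replicate 2 as well, the 49 became 8.

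For a number of members the cut difference was smaller at 6 h than at 3 h. In L-Kyn cut replicate 1, 107 members were at least 1.5 above 3 h L-Kyn uncut tips on the log2(CPM + 1) scale, and 79 of them (73.8%) had less than 0.5 times that difference at 6 h, as did 53.6% of the 642 loci with such a difference. The difference of both differences, 6 h minus 3 h, was called for 0 members by edgeR in the fit of all 10 libraries (0% of loci in either direction), with 32 members at an unadjusted p under 0.05, where 7.8% of all loci were. DESeq2 called 0 members as well, against 0.207% of loci higher and 0.0488% lower, and gave no adjusted p for 98 of the 162 tested. Without the library labelled as L-Kyn cut 3 h replicate 2 it was lower for 17 members and higher for 0, against 0.232% of loci lower and 0.0232% higher. The 17 include the stress genes LTI78 and HVA22D, the dehydrin gene ERD10, the zinc finger genes STZ and RHL41, the jasmonate genes AOC2 and TAT3, and the small heat shock genes HSP23.6-MITO and AT1G53540. In that fit 29 members were called higher at both times, 67 at 3 h with no call at 6 h, 20 at 6 h with no call at 3 h, 71 of those tested at neither, and 13 were not tested. A call at one time alone does not show a difference between the times, which was called for 14 of the 67 and for none of the 20. For each of the 17 the fitted level of cut tips was lower at 6 h than at 3 h and that of uncut tips higher, so that the difference holds a part of each. The 17 became 9 without L-Kyn uncut 6 h replicate 1, 10 without L-Kyn uncut 3 h replicate 3 and 27 without L-Kyn cut 6 h replicate 1.

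**Figure D3:**
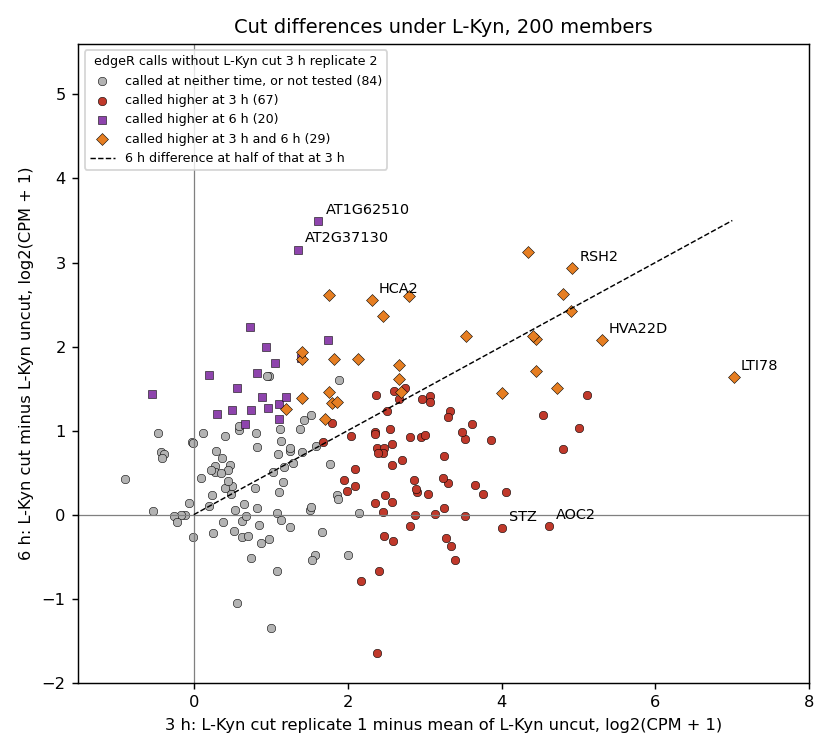
Difference between L-Kyn cut and 6 h L-Kyn uncut tips (vertical) against that of L-Kyn cut 3 h replicate 1 (horizontal), in log2(CPM + 1), for the 200 members. Colours and shapes give the edgeR calls without the library labelled as L-Kyn cut 3 h replicate 2 (29 at both times, 67 at 3 h, 20 at 6 h), and points under the dashed line had less than 0.5 times their 3 h difference at 6 h.

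Promoters are shown for members of the highest r3, to set letters beside genes that moved together, and for a group with a wound-related motif. A promoter here is the 250 bases before the annotated start of a gene in the RefSeq annotation of TAIR10.1, matched by locus for 196 members and 21792 of all loci. The count table gives no coordinates, and its build, TAIR10, is named in the submitters' notes. Capitals mark TTGAC (the W-box core, bound by WRKY factors), CCGAC (the core of the dehydration-responsive element) and CGCGT (the core bound by calmodulin-binding CAMTA factors), on either strand.
LTI78 (chr5:21240467-21240716, plus strand): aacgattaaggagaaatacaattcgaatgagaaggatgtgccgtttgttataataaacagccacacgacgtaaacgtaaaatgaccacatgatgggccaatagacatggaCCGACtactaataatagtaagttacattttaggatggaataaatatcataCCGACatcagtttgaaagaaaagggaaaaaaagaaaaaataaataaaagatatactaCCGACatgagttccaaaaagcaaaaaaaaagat
RSH2 (chr1:4419464-4419713, plus strand): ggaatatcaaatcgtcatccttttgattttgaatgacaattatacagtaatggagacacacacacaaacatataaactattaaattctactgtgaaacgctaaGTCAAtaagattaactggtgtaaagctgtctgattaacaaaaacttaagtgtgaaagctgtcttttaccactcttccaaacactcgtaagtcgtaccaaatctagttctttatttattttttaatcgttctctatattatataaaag
WOX5 (chr3:3527030-3527279, plus strand): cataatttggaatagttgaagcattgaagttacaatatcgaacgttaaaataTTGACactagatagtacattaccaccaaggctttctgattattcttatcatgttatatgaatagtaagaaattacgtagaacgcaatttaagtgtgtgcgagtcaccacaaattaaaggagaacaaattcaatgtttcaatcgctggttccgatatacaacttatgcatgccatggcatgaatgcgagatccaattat
SULTR1;2 (chr1:29327265-29327514, plus strand): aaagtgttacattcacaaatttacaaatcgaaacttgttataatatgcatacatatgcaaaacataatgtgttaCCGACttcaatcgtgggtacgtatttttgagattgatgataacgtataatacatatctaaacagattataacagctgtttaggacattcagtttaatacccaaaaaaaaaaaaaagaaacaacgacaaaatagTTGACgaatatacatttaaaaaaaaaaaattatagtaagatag
NUDT7 (chr4:7486975-7487224, plus strand): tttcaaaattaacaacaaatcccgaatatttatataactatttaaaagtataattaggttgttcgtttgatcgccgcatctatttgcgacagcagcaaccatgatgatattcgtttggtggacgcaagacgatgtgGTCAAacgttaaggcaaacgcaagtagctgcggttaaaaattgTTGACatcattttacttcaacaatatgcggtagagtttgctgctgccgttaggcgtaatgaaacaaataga
EXLA3 (chr3:16892452-16892701, plus strand): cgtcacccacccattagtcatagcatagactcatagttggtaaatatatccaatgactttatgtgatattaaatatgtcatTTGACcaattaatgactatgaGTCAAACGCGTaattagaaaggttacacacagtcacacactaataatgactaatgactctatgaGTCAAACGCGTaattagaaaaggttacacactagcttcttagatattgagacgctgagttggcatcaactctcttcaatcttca
ZAT7 (chr3:16926884-16927133, minus strand): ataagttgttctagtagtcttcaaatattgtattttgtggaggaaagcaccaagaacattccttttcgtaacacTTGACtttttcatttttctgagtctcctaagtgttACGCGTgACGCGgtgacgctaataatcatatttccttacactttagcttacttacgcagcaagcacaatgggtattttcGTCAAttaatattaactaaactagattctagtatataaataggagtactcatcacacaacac
EXLA1 (chr3:16895916-16896165, plus strand): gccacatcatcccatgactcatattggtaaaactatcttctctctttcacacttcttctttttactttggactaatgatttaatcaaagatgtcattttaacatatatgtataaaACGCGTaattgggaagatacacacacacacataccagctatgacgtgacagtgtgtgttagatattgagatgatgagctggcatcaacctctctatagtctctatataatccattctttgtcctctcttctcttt
LTI78, the member with the highest r3, was picked for its 3 matches of CCGAC after they were seen. RSH2, WOX5, SULTR1;2 and NUDT7 are the 4 members with a symbol and the highest r3 whose promoter holds TTGAC. EXLA3, ZAT7 and EXLA1, chosen after the matches were seen, have 4, 3 and 2 matches of CGCGT. Each copy of ACGCGT, which reads the same on both strands, gives 2 matches.

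Across the members, the share of promoters with a match was above that of all loci for each of 11 motifs searched on both strands, with no test of the difference. Among the 100 members with the highest r3 this was not so for ACGTGTC (2.02% against 4.04% of all loci). CGCGT was in 15.8% of the 196 member promoters, against 7.36% of all 21792. The longer CGCGTT, which overlaps it, was in 6.63% against 2.77%, and CACGTG, the G-box, in 13.3% against 7.1%. CCGAC was in 18.9% against 12.7%, and AATATCT, part of the evening element of clock-controlled genes, in 15.3% against 9.96%. TTGAC, the motif with the largest share, was in 49.5% of member promoters and 45% of all. Shares were 23.5% against 19.2% for TGACG, 11.7% against 9.32% for GAANNTTC, 6.63% against 4.04% for ACGTGTC, 2.55% against 1.96% for GCCGCC and 47.4% against 46.3% for TATAAA. L-Kyn cut 3 h replicate 1 lay above L-Kyn uncut tips for 30 of the 31 members with CGCGT and for 139 of the 165 without it, with median differences of 2.45 and 1.54 on the log2(CPM + 1) scale. At 6 h the medians were 0.62 with the motif and 0.79 without. The 3 h medians were 1.87 with CCGAC and 1.58 without it, and 1.62 with TTGAC and 1.74 without it. For CACGTG the order was the reverse of that for CGCGT, with 20 of 26 members with it above uncut tips at 3 h and 149 of 170 without it, and medians of 1.38 and 1.72. The median r3, which ranked the members, was 2.21 with the CAMTA core and 2.06 without it. It was 1.85 with the G-box and 2.14 without it. For the core of the dehydration-responsive element it was 2.17 and 2.07, and for the W-box core 2.09 and 2.09. Except for the W-box core, the 3 h medians thus went in the direction of r3. Whether they differ apart from r3 was not tested, and they rest on 1 L-Kyn cut library. A match of letters is a description and no binding site.

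**Figure D4:**
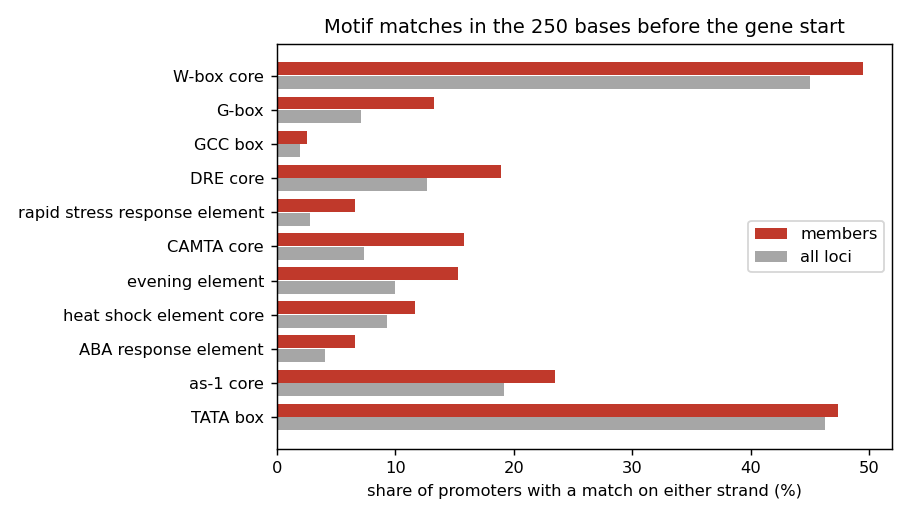
Share of promoters (horizontal, in percent) with at least 1 match on either strand of each of 11 motifs, for 196 members (red) and 21792 loci (grey). The widest ratios are those of CGCGTT (6.63% against 2.77%, labelled rapid stress response element) and CGCGT (15.8% against 7.36%, labelled CAMTA core).

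The members are described next by role. The 8 role groups were formed after the values were seen, so their counts are a description. Counts of libraries above uncut tips can be set beside the shares of all members and of all loci. At 3 h L-Kyn cut replicate 1 lay above uncut tips for 86% of members and 30.2% of loci, and replicate 2 for 15.5% and 29.3%. At 6 h L-Kyn cut tips lay above uncut tips in every library for 45% of members and 16.5% of loci. Unless a sentence says that all libraries were used, its counts of calls and adjusted p values come from the fit without the library labelled as L-Kyn cut 3 h replicate 2, whose CPM is the second value given for 3 h L-Kyn cut tips. With all libraries edgeR with its expression filter called no member at 3 h or in the difference between the times, and no gene of the lists below at 3 h. COR15A, AT5G39670, TI2 and ATHSP22.0, counted as calls below, did not pass the filter there. Without the library labelled replicate 2, a single library of high counts is enough to pass it. With all libraries DESeq2 called 12 members at 3 h, against 36 of 16406 loci, and edgeR with no filter 23, against 71 of 22065. Counts of the lists can be set beside the shares of all loci called without that library, 3.23% higher and 1.95% lower at 3 h, and 5.62% higher and 5.12% lower at 6 h. With all libraries the shares at 6 h were 0.823% and 0.524%.

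Genes of calcium signalling and transport made up 9 members. L-Kyn cut replicate 1 lay above 3 h L-Kyn uncut tips for all 9 and replicate 2 for none, and edgeR called 8 higher at 3 h and 2 at 6 h. CNGC19, a plasma membrane calcium channel gene, had 30.6 and 0.636 CPM in 3 h L-Kyn cut tips, against 0.863, 0 and 0.626 in L-Kyn uncut tips. It had 3.55, 16.4 and 8.48 CPM in 6 h L-Kyn cut tips, against 1.02 and 2.85 in L-Kyn uncut tips. Mock cut tips had 31.6, 19.2 and 14.6 CPM at 3 h and 1.92 and 3.07 at 6 h, against 2.48, 0.455 and 0 in mock uncut tips. Its L-Kyn groups did not overlap at 6 h, and at 3 h replicate 2 was the only cut library within the uncut range. The log2 fold change of CNGC19 at 3 h was 5.58 ± 0.69 SE (edgeR adjusted p = 1.69e-05), and with all libraries 4.62 ± 1.15 SE (edgeR adjusted p = 0.24). At 6 h it was 1.95 ± 0.63 SE (edgeR adjusted p = 0.0484, and 0.291 with all libraries). AT3G22910, annotated as an E1-E2 type ATPase, had the second highest r3 (4.52), with 37.8 and 0.212 CPM in 3 h L-Kyn cut tips against 0, 0 and 0.418 in uncut tips. ACA11, a calcium pump gene of the vacuole membrane, had 40, 38.3 and 37.9 CPM in 6 h L-Kyn cut tips against 17 and 14.3 in uncut tips. Its log2 fold change at 6 h was 1.26 ± 0.31 SE, and with all libraries 1.26 ± 0.47 SE (edgeR adjusted p = 0.135). At 3 h it was 1.28 ± 0.34 SE, and with all libraries 0.56 ± 0.45 SE. AT5G39670, a calcium-binding EF-hand protein gene, and CML37, a calmodulin-like gene, each had 10.5 CPM in L-Kyn cut 3 h replicate 1 and 0 counts in the 3 uncut libraries, at least 33.6-fold higher against a floor of 3 counts over the group. Of the calmodulin-like and touch genes as a list, 6 of 21 tested were called higher at 3 h and 2 at 6 h, 4 and 2 of them outside the members, among them TCH3, which codes for a calmodulin-like protein of the touch response. With all libraries 0 of 20 were called at 6 h.

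The 2 highest r3 values with a symbol belong to dehydration and cold genes, a group of 9 members. LTI78, also known as RD29A and induced by drought, cold and abscisic acid, had 159.5 and 0 CPM in 3 h L-Kyn cut tips, against 0.575, 0 and 0.209 in L-Kyn uncut tips. It had 12.7, 20.3 and 18 CPM in 6 h L-Kyn cut tips, against 4.42 and 4.93 in L-Kyn uncut tips. Mock cut tips had 52.6, 93 and 176 CPM at 3 h and 7.03 and 11 at 6 h, against 2.79, 1.82 and 0 in mock uncut tips. Replicate 1 of 3 h L-Kyn cut tips was within the mock cut range, replicate 2 had no read, and all 3 cut libraries at 6 h were above both uncut ones. LTI78 rose at 3 h (log2 fold change 8.86 ± 0.51 SE, edgeR adjusted p = 7.29e-10) and less at 6 h (1.74 ± 0.39 SE, edgeR adjusted p = 0.00644), and the difference between the times was -7.12 ± 0.70 SE (edgeR adjusted p = 2.47e-05). With all libraries its log2 fold change at 3 h was 7.87 ± 1.57 SE and the adjusted p values were 0.176, 0.416 and 0.475 for the 3 tests. HVA22D, of a family induced by abscisic acid in barley, had 747 and 26.3 CPM in 3 h L-Kyn cut tips, against 31.1, 9.31 and 19.6 in uncut tips. At 6 h it had 118, 183 and 133 CPM in L-Kyn cut tips, against 32.6 and 33.2 in uncut tips. Its difference between the times was -3.14 ± 0.53 SE on the log2 scale (edgeR adjusted p = 0.0073, and 0.67 with all libraries).

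ERD10 and COR47, neighbouring dehydrin genes on chromosome 1, did not keep a called difference at 6 h. ERD10 had 546 and 68.5 CPM in 3 h L-Kyn cut tips against 67.6, 51.2 and 42.2 in uncut tips, and 50, 247 and 158 CPM in 6 h L-Kyn cut tips against 176 and 150.4 in uncut tips. The ranges at 6 h overlap. COR47 had 2239 and 302 CPM in 3 h L-Kyn cut tips against 300.5, 298 and 237 in uncut tips, and 275, 939 and 708 CPM in cut tips at 6 h against 361 and 239 in uncut tips. The difference between the times, 6 h minus 3 h, was -3.61 ± 0.61 SE for ERD10 (edgeR adjusted p = 0.00751) and -2.04 ± 0.56 SE for COR47 (edgeR adjusted p = 0.185). Of the group, edgeR called 8 of 9 higher at 3 h, 2 at 6 h, and 5 lower in the difference of both. COR15A, a cold-induced chloroplast protein gene, was at 0 counts in mock uncut tips and at least 16.4-fold higher in 3 h mock cut tips, and had 8.26 and 0.636 CPM in 3 h L-Kyn cut tips against 0.288, 0.776 and 0 in uncut tips. In the list of abscisic acid, PP2C and dehydration genes, 16 of 47 tested were called higher at 3 h and 13 at 6 h, none lower, and 6 of its 54 genes are members. With all libraries 3 of 45 were called higher at 6 h.

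**Figure D5:**
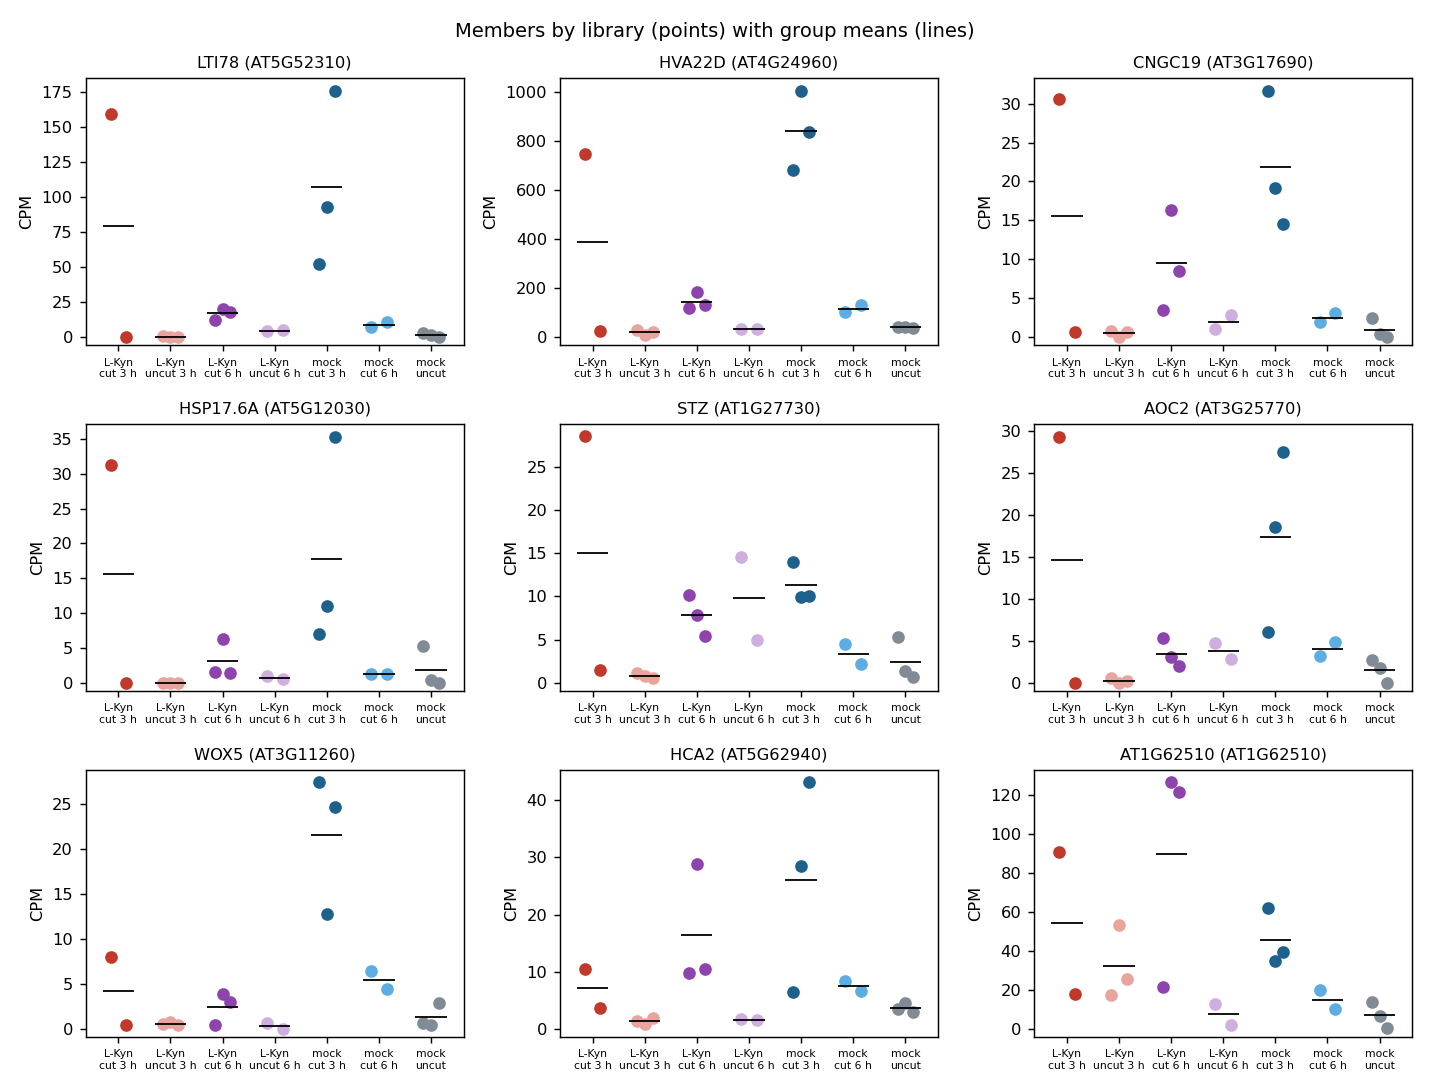
CPM of 9 members in each library (points) with group means (lines), on axes that differ between panels. LTI78, HVA22D, CNGC19, HSP17.6A, STZ and AOC2 are high in L-Kyn cut 3 h replicate 1 and low in replicate 2, and AT1G62510 is highest in 2 L-Kyn cut 6 h libraries (126 and 122 CPM).

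Heat shock proteins and chaperones were 6 members, small heat shock proteins among them, which keep unfolding proteins from aggregating. L-Kyn cut replicate 1 lay above uncut tips for all 6 at 3 h and replicate 2 for none, and edgeR called 4 higher at 3 h, 1 at 6 h, and 2 lower in the difference of both. HSP17.6A, a cytosolic small heat shock gene, had 31.2 and 0 CPM in 3 h L-Kyn cut tips and 0 counts in the 3 uncut libraries, at least 99.4-fold higher in replicate 1 against a floor of 3 counts over the group. At 6 h it had 1.55, 6.25 and 1.5 CPM in L-Kyn cut tips, against 1.02 and 0.519 in uncut tips, with no call (edgeR adjusted p = 0.19). HSP23.6-MITO, its mitochondrial relative, had 18.6 and 1.06 CPM in 3 h L-Kyn cut tips against 0.575, 1.55 and 0.626 in uncut tips, and 2.0, 4.68 and 3.49 in cut tips at 6 h against 4.08 and 6.48 in uncut tips. Its cut difference was called at 3 h (log2 fold change 4.60 ± 0.62 SE, edgeR adjusted p = 4.75e-05), and its value at 6 h was -0.87 ± 0.53 SE. The spread among 3 h mock cut tips was wide for these genes, with 6.98, 11 and 35.3 CPM for HSP17.6A, 3.26, 5.81 and 37.6 for HSP23.6-MITO and 8.84, 22.1 and 127 for AT1G53540, and replicate 3 was highest each time. P58IPK, a co-chaperone gene of the endoplasmic reticulum, showed another order, with 235, 133 and 192 CPM in 6 h L-Kyn cut tips against 79.5 and 50.8 in uncut tips, and 244 and 119.6 CPM in cut tips at 3 h against 217, 126 and 161 in uncut tips. It rose 2.82-fold at 6 h (edgeR adjusted p = 0.00768, and 0.0649 with all libraries) and was not called at 3 h (edgeR adjusted p = 0.523). Of 52 heat shock genes tested as a list, 13 were called higher at 3 h and none lower, and at 6 h 4 were higher and 4 lower. With all libraries 0 of 51 were higher at 6 h and 2 lower.

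Transcription factor genes were 17 members. L-Kyn cut replicate 1 lay above uncut tips for 14 at 3 h, replicate 2 for 3, and edgeR called 8 higher at 3 h and 3 at 6 h. WOX5, the homeobox gene of the quiescent centre, had 8.06 and 0.424 CPM in 3 h L-Kyn cut tips, against 0.575, 0.776 and 0.418 in uncut tips. At 6 h it had 0.444, 3.9 and 2.99 CPM in L-Kyn cut tips, against 0.680 and 0 in uncut tips. Mock cut tips had 27.5, 12.8 and 24.7 CPM at 3 h and 6.39 and 4.39 at 6 h. Mock uncut tips had 0.620, 0.455 and 2.92 CPM. L-Kyn cut 3 h replicate 1 was below all 3 h mock cut libraries, and replicate 2 was within the 3 h L-Kyn uncut range. At 6 h the L-Kyn cut libraries were below both mock cut ones. This is a description and not a test, and mock tips chose the members. WOX5 rose at 3 h (log2 fold change 3.87 ± 0.90 SE, edgeR adjusted p = 0.011, and 0.839 with all libraries) and was not called at 6 h (edgeR adjusted p = 0.162). HCA2, a Dof factor gene of vascular development, had 10.5 and 3.61 CPM in 3 h L-Kyn cut tips against 1.44, 0.776 and 1.88 in uncut tips, and 9.77, 28.9 and 10.5 in cut tips at 6 h against 1.7 and 1.56 in uncut tips. Both cut libraries at 3 h and all 3 at 6 h were above the uncut ones. HCA2 rose 9.0-fold at 6 h with all libraries (log2 fold change 3.17 ± 0.67 SE, edgeR adjusted p = 0.0384) and was called at 3 h only without replicate 2 (2.79 ± 0.61 SE, edgeR adjusted p = 0.00663).

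The stress zinc finger genes STZ and RHL41, also known as ZAT10 and ZAT12, differed between the times. STZ had 28.5 and 1.48 CPM in 3 h L-Kyn cut tips against 1.15, 0.776 and 0.626 in uncut tips, and 10.2, 7.81 and 5.49 CPM in cut tips at 6 h against 14.6 and 4.93 in uncut tips. The cut and uncut ranges overlap at 6 h. The difference between the times was -5.31 ± 0.75 SE for STZ (edgeR adjusted p = 0.00326) and -3.58 ± 0.76 SE for RHL41 (edgeR adjusted p = 0.0449), and 0.364 and 0.441 were the adjusted p values with all libraries. RHL41 had 18.4 and 4.24 CPM in 3 h L-Kyn cut tips against 0.288, 4.65 and 1.88 in uncut tips, and 7.99, 7.81 and 10.5 in cut tips at 6 h against 9.85 and 9.33 in uncut tips. ZAT7, of the same family, had 9.5 and 0.424 CPM in 3 h L-Kyn cut tips against 0.288, 6.2 and 0.418 in uncut tips, with overlap in replicate 2 and no call (edgeR adjusted p = 0.0825). AT3G46080, of the same family, had 11 and 0.424 CPM in 3 h L-Kyn cut tips against 0, 4.65 and 0.418 in uncut tips and was called (edgeR adjusted p = 0.0239). ABR1, a repressor of abscisic acid responses of the ERF family, was called at 3 h (log2 fold change 4.28 ± 0.55 SE, edgeR adjusted p = 3.26e-05), with 24.4 and 1.48 CPM in L-Kyn cut tips against 0.863, 1.55 and 1.46 in uncut tips.

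Among the factor genes with no call at either time were WRKY20, ARF16 and PAT1. WRKY20 had 8.47 and 8.7 CPM in 3 h L-Kyn cut tips against 6.61, 10.1 and 9.39 in uncut tips, and 5.33, 3.12 and 5.49 in cut tips at 6 h against 6.46 and 4.93 in uncut tips. ARF16, an auxin response factor gene of the root cap, had 6.41 and 4.88 CPM in cut tips at 3 h against 5.46, 2.33 and 3.55 in uncut tips, and 3.33, 8.59 and 4.49 in cut tips at 6 h against 5.78 and 4.67 in uncut tips. The ranges of both genes overlap at 3 h, and neither was called (edgeR adjusted p = 0.992 and 0.611 at 3 h). PAT1, a GRAS factor gene, was not called either (edgeR adjusted p = 0.285 at 3 h and 0.572 at 6 h), with 20.2 and 13.8 CPM in 3 h L-Kyn cut tips against 9.78, 17.1 and 8.35 in uncut tips. WRKY20 is the only member of the 60 WRKY genes counted, while 9 of 44 WRKY genes tested were called higher at each time, WRKY33, WRKY40 and WRKY6 among them at 3 h. With all libraries 0 of 43 WRKY genes were called at 6 h. Of 16 regeneration regulators tested as a list, 4 were called higher and 1 lower at 3 h, and 6 higher and 1 lower at 6 h. The 4 at 3 h are the members WOX5 and HCA2, and NAC096 and TMO6. With all libraries 2 of 14 were called higher at 6 h and 0 lower.

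Jasmonate and protease inhibitor genes were 5 members, all with L-Kyn cut replicate 1 above uncut tips at 3 h, and none with cut above uncut tips in every library at 6 h. AOC2, an allene oxide cyclase gene of jasmonate synthesis, had 29.3 and 0 CPM in 3 h L-Kyn cut tips against 0.575, 0 and 0.209 in uncut tips, and 5.33, 3.12 and 1.99 in cut tips at 6 h against 4.76 and 2.85 in uncut tips. The cut and uncut ranges overlap at 6 h. The difference between the times was -6.42 ± 0.91 SE on the log2 scale (edgeR adjusted p = 0.00326, and 0.444 with all libraries). TAT3, a tyrosine aminotransferase gene induced by jasmonate, rose at 3 h (log2 fold change 3.56 ± 0.78 SE, edgeR adjusted p = 0.00668) and was the 1 member that fell at 6 h (-2.83 ± 0.81 SE, edgeR adjusted p = 0.0279, and 0.115 with all libraries). Its values were 7.64 and 1.06 CPM in 3 h L-Kyn cut tips against 0.575, 0.776 and 0.626 in uncut tips, and 0.444, 1.56 and 0 in cut tips at 6 h against 5.1 and 2.85 in uncut tips. CYP94B3, a cytochrome P450 that inactivates the jasmonate hormone, had 5.37 CPM in L-Kyn cut 3 h replicate 1 and 0 counts in uncut tips, at least 17.1-fold higher. TI2, a trypsin inhibitor gene, had 12.4 and 0 CPM in 3 h L-Kyn cut tips against 0, 0 and 0.209 in uncut tips. AOC2 has close copies in the genome, so its share of their reads is uncertain. Of 32 jasmonate genes tested as a list, 6 were called higher at 3 h, the non-members LOX3, LOX6, AOC3 and AOS among them, and 2 at 6 h, where with all libraries 0 of 26 were.

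Cell wall genes were 11 members. L-Kyn cut replicate 1 lay above uncut tips for 9 at 3 h, and cut lay above uncut tips in every library for 8 at 6 h. EdgeR called 6 higher at 3 h and 4 at 6 h. EXPA17, an expansin gene, had 60.7 and 8.06 CPM in 3 h L-Kyn cut tips against 5.75, 14.7 and 12.3 in uncut tips, and 2.44, 10.9 and 12.5 in cut tips at 6 h against 1.02 and 0.259 in uncut tips. Uncut tips also differed, 6 h against 3 h (log2 fold change -3.98 ± 0.76 SE, edgeR adjusted p = 0.00144, and 0.0337 with all libraries), and mock uncut tips had 1.55, 0.455 and 0.649 CPM. EXPA17 rose at 3 h (log2 fold change 2.57 ± 0.51 SE, edgeR adjusted p = 0.00279) and at 6 h (3.54 ± 0.79 SE, edgeR adjusted p = 0.00694, and 0.0881 with all libraries). EXLA1, an expansin-like gene near EXLA3 on chromosome 3, had 28.9 and 1.06 CPM at 3 h in L-Kyn cut tips against 0.575, 3.88 and 1.25 in uncut tips, and 9.55, 8.59 and 11.5 in cut tips at 6 h against 3.06 and 0.519 in uncut tips. EXLA3 had 10.3 and 0.424 CPM in cut tips at 3 h against 0, 0 and 0.418 in uncut tips, and 2.44, 1.56 and 3.49 in cut tips at 6 h against 0.680 and 0.259 in uncut tips. Both had all 3 cut libraries above the uncut ones at 6 h, and EXLA1 was called there (edgeR adjusted p = 0.0105) where EXLA3 was not (edgeR adjusted p = 0.0882). TCH4, a touch-induced xyloglucan endotransglucosylase gene, was called at 3 h and not at 6 h (log2 fold change 4.02 ± 0.59 SE, edgeR adjusted p = 0.000138), with 31.8 and 1.27 CPM in cut tips against 2.3, 0 and 2.51 in uncut tips. PME2, a pectin methylesterase gene, went the other way at 3 h without a call, with 56 and 76.8 CPM in L-Kyn cut tips against 84.2, 99.3 and 65.6 in uncut tips, and had 66.8, 58.6 and 62.8 CPM in cut tips at 6 h against 31.3 and 16.1 in uncut tips. Of 65 xyloglucan, expansin and related genes tested as a list, 12 were called higher and 4 lower at 3 h, and 23 higher and 3 lower at 6 h. With all libraries 4 of 64 were called higher and 1 lower at 6 h.

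Membrane transporter genes were 12 members and redox and glutathione genes 7. At 3 h L-Kyn cut replicate 1 lay above uncut tips for 8 of the 12 and 6 of the 7. Cut lay above uncut tips in every library at 6 h for 9 of the 12 and 5 of the 7. DELTA-TIP, a water channel gene of the vacuole membrane, had 208 and 20.8 CPM in 3 h L-Kyn cut tips against 65, 70.6 and 49.3 in uncut tips, and 113, 173 and 235 in cut tips at 6 h against 42.5 and 16.3 in uncut tips. It rose 5.73-fold at 6 h (edgeR adjusted p = 0.000245, and 0.0683 with all libraries). PHT1;1, a phosphate uptake gene, had 9.99, 17.2 and 4.99 CPM in 6 h L-Kyn cut tips against 2.38 and 0.519 in uncut tips, and 12 and 4.45 in cut tips at 3 h against 4.31, 13.2 and 5.43 in uncut tips. It was called at 6 h (log2 fold change 2.85 ± 0.67 SE, edgeR adjusted p = 0.00955) and not at 3 h, where the ranges overlap. SULTR1;2, a sulphate uptake gene, had 63.4 and 4.88 CPM at 3 h in L-Kyn cut tips against 5.18, 20.2 and 8.14 in uncut tips, and was called there (edgeR adjusted p = 0.00168) and not at 6 h (edgeR adjusted p = 0.0811). SUC2, the sucrose loader of the phloem, had 5.17 and 1.06 CPM in cut tips at 3 h against 0, 0 and 0.418 in uncut tips (edgeR adjusted p = 0.0133).

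APX1, the cytosolic ascorbate peroxidase gene, had 2546, 1996 and 2583 CPM in 6 h L-Kyn cut tips against 1124 and 408 in uncut tips. At 3 h it had 3395 and 1476 CPM in L-Kyn cut tips against 1708, 1634 and 1543 in uncut tips. At 6 h its log2 fold change of cut against uncut tips was 1.61 ± 0.36 SE (edgeR adjusted p = 0.0624 with all libraries). It was not called at 3 h. Both 6 h uncut libraries were below all 3 h uncut ones, and the 6 h cut libraries were below replicate 1 of 3 h cut tips. AT2G37130, a peroxidase gene, had 33.5, 39.8 and 20.9 CPM in 6 h L-Kyn cut tips against 5.1 and 1.04 in uncut tips, and 32.4 and 5.94 in cut tips at 3 h against 13.2, 20.2 and 6.47 in uncut tips. It rose 10.4-fold at 6 h with all libraries (log2 fold change 3.38 ± 0.76 SE, edgeR adjusted p = 0.0444). GSTF10, a glutathione transferase gene, had 2187 and 683 CPM in 3 h L-Kyn cut tips against 704, 689 and 626 in uncut tips, and 1224, 817 and 1169 in cut tips at 6 h against 449.5 and 508 in uncut tips. Reads of near-identical glutathione transferase genes may be split between them. As a list, 12 of 42 glutathione transferase genes were called higher at 3 h and 15 at 6 h, with none lower at 3 h and 1 at 6 h. With all libraries 1 of 41 was called higher at 6 h and 0 lower.

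Other members of high r3 are given next, whether or not a role above could hold them. RSH2, a root hair gene, had 40.1 and 0.424 CPM in 3 h L-Kyn cut tips against 0, 0.776 and 0.418 in uncut tips, and 5.11, 22.6 and 11.5 in cut tips at 6 h against 0.680 and 0.519 in uncut tips. It was called at 3 h (edgeR adjusted p = 1.54e-06) and at 6 h (edgeR adjusted p = 0.000969), as was BAM5, a beta-amylase gene with 0 counts in 6 h L-Kyn uncut tips and at least 18.6-fold higher in cut tips. BAM5 had 21.1 and 0 CPM in 3 h L-Kyn cut tips against 0.288, 0 and 0 in uncut tips, and 4.44, 10.1 and 9.97 in 6 h L-Kyn cut tips. NUDT7, a nudix hydrolase gene that restrains defence responses, was called at 3 h and not at 6 h, with 141 and 20.2 CPM in L-Kyn cut tips against 21.6, 14.7 and 16.5 in uncut tips (log2 fold change 3.02 ± 0.33 SE, edgeR adjusted p = 3.34e-06). DGR1, of a cell wall protein family of unknown function, was called at 6 h (edgeR adjusted p = 0.00422), with 64.2, 13.3 and 31.4 CPM in L-Kyn cut tips against 7.14 and 5.7 in uncut tips. RLP12, a receptor-like protein gene, and NHL3, a defence-related membrane protein gene, were called at 3 h (edgeR adjusted p = 0.0239 and 0.00211) and not at 6 h. AT4G29780, annotated as a nuclease, had 54.3 and 1.48 CPM in 3 h L-Kyn cut tips against 1.73, 0 and 1.88 in uncut tips, and a difference between the times of -4.41 ± 0.69 SE (edgeR adjusted p = 0.00473). AT4G18280, annotated as glycine-rich cell wall protein-like, had 64.1 and 6.36 CPM in 3 h L-Kyn cut tips against 4.31, 1.55 and 3.34 in uncut tips, and a difference between the times of -3.81 ± 0.64 SE (edgeR adjusted p = 0.0073). AT5G01380, annotated as a homeodomain-like protein, was called at both times, with 30.4 and 0.424 CPM in 3 h L-Kyn cut tips against 0, 0 and 0.418 in uncut tips, and 4.88, 18 and 7.48 in cut tips at 6 h against 0.680 and 0.519 in uncut tips. AT1G62510, of the lipid transfer protein superfamily, was called at 6 h, with 21.5, 126 and 122 CPM in L-Kyn cut tips against 12.9 and 1.81 in uncut tips (edgeR adjusted p = 0.00207, and 0.0575 with all libraries).

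Some members differed between 3 h and 6 h uncut tips, where hours and set cannot be told apart. In L-Kyn uncut tips, 6 h against 3 h, edgeR called 4 members higher, against 4.69% of loci, and 15 lower, against 3.9%. With only the groups compared, 12 of 119 members tested were higher, where 1856 of 15204 loci were. In that fit 41 members were lower, where 1730 loci were. Without the library labelled as L-Kyn cut 3 h replicate 2 the counts were 15 and 36, against 8.22% and 6.52% of loci. Without L-Kyn uncut 6 h replicate 2 the 4 and 15 became 0 and 0, and the 15 and 36 became 6 and 6. LHY, a transcription factor gene of the circadian clock, had 1.36 and 1.3 CPM in 6 h L-Kyn uncut tips against 10.9, 10.9 and 10.6 at 3 h (log2 fold change -2.90 ± 0.54 SE, edgeR adjusted p = 0.00124, and 0.00451 with all libraries). L-Kyn cut tips had 1.11, 3.12 and 2.49 CPM at 6 h and 5.37 and 4.45 at 3 h, all 3 h values below the uncut ones. Mock cut tips had 22.3, 22.7 and 5.61 CPM at 3 h and 1.28 and 2.19 at 6 h, and mock uncut tips 1.55, 0.910 and 1.62. LHY was thus high in 3 h tips, cut or not, and low in 6 h tips, and the labels give no time for mock uncut tips. Of 13 circadian clock genes tested as a list for cut against uncut L-Kyn tips, edgeR called 0 in either direction at either time. The list was not tested between the hours. CCA1, its partner in the clock, had at most 4.07 CPM in any library and was not tested. STZ, RHL41, the lipocalin gene TIL and BCS1 (AT3G50930) were the 4 called higher in uncut tips at 6 h than at 3 h with all libraries.

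The mitochondrial gene for subunit 3 of cytochrome c oxidase is counted at ATMG00730 and at its copy AT2G07687 on chromosome 2, which share reads. AT2G07687 had 48.3 and 48.2 CPM in 3 h L-Kyn cut tips and 31.3, 45 and 21.1 in 3 h L-Kyn uncut tips, and 2.89, 6.25 and 4.49 CPM at 6 h in L-Kyn cut tips and 7.48 and 3.89 in L-Kyn uncut tips. Mock cut tips had 56.8, 36.6 and 28 CPM at 3 h and 3.83 and 2.19 at 6 h, and mock uncut tips 5.58, 0.910 and 23.7. It was high in every 3 h library and in mock uncut replicate 3, cut or not, which is the same set. Together with AT2G17920, these loci were the 3 members called lower in 6 h L-Kyn cut tips than at 3 h with all libraries, against 0.792% of loci, and 0 were called higher, against 1.86%. Without the library labelled replicate 2 those counts were 55, against 1.19%, and 0, against 1.32%, and replicate 1 lay above all L-Kyn cut 6 h libraries for 163 of 200 members, against 26.9% of loci. The loci AT5G53588 and AT5G53590, and AT5G15948 and AT5G15950, also hold nearly the same reads, so that the members hold 3 such pairs. Besides these, 6 pairs of members are direct neighbours in the annotation, among them ERD10 and COR47, and the trypsin inhibitor gene TI2 and AT2G43530.

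Several members higher in cut than in uncut tips at 6 h had 3 h uncut levels near those of 6 h cut tips. P58IPK, described above, was among them. AT2G36320 had 32.4, 39 and 53.4 CPM in 6 h L-Kyn cut tips against 13.9 and 7.0 in 6 h L-Kyn uncut tips, while 3 h L-Kyn uncut tips had 38.2, 35.7 and 29.9. AT1G74055 had 20.2, 18.7 and 20.9 CPM in cut tips against 4.08 and 4.41 in uncut tips, and 19.8, 18.6 and 24.2 in 3 h L-Kyn uncut tips. The comparison of cut and uncut tips at 6 h and that of uncut tips between times share the 6 h uncut libraries. With all libraries the log2 fold change of AT2G36320 was 1.95 ± 0.44 SE in the first (edgeR adjusted p = 0.0444) and -1.67 ± 0.44 SE in the second (edgeR adjusted p = 0.0291), and for AT1G74055 it was 2.17 ± 0.45 SE (edgeR adjusted p = 0.0384) and -2.21 ± 0.45 SE (edgeR adjusted p = 0.00731). 3 h L-Kyn uncut tips lay above those at 6 h for 73 of 200 members, where 21.5% of all loci did, and below for 32, where 22.2% did. The median difference of the members, 3 h minus 6 h, was 0.29 on the log2(CPM + 1) scale, against 0 over all loci.

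Against mock tips, values can only be set side by side. L-Kyn cut 3 h replicate 1 minus 3 h mock cut tips had a median of -0.12 over the members, against 0.06 over all loci. The difference of 6 h L-Kyn cut tips minus 6 h mock cut tips had a median of 0.10, against -0.03. The median of 3 h L-Kyn uncut tips minus mock uncut tips was 0.30, against -0.01, and that of 6 h L-Kyn uncut tips minus mock uncut tips was 0, against -0.01. Among the members far from these medians, WOX5 was lower in 3 h L-Kyn cut tips than in 3 h mock cut tips. EXPA17 was higher in 3 h L-Kyn uncut tips than in mock uncut tips. Of the 200 members, 142 were in L-Kyn cut 3 h replicate 1 at or above the lowest 3 h mock cut library, as were 89% of all loci. The 3 h L-Kyn uncut libraries lay below all 3 h mock cut libraries for 157, against 8.09% of loci, and above all mock uncut libraries for 35, against 6.62%. The 6 h L-Kyn uncut libraries lay above all mock uncut libraries for 20 members, against 10% of loci. Within mock tips, 6 h cut libraries lay above uncut ones for 73 members, against 14.9% of loci, and 3 h cut libraries above 6 h cut ones for 181, against 9.2%. Mock tips chose the members, so nothing is read from these counts and no test was made.

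Of 4 lists of tissue markers, 3 had lower sums in 6 h L-Kyn cut tips and in L-Kyn cut 3 h replicate 1 than in every L-Kyn uncut library of the same hours. The summed level of the 4 root cap markers counted was 8.68 and 121 CPM in the 2 L-Kyn cut 3 h libraries and 7.48 to 11.7 in 6 h L-Kyn cut tips, against 41.1 to 102 in 3 h L-Kyn uncut tips and 130 to 169 at 6 h. That of the 6 quiescent centre and stem cell niche markers, WOX5 being one, was 12.8 and 139 CPM at 3 h and 3.11 to 8.59 at 6 h in L-Kyn cut tips, against 73.5 to 105 and 176 to 220 in L-Kyn uncut tips. The lower value at 3 h in L-Kyn cut tips is that of replicate 1 in both lists. FEZ, of the root cap list, was at 0 in 6 h L-Kyn cut tips and 3 h mock cut tips, RGF2 in 6 h L-Kyn cut tips, and RGF3 in 3 h mock cut tips. The 5 markers of dividing cells summed to 18.2 and 82.7 CPM at 3 h and 21.9 to 24.9 at 6 h in L-Kyn cut tips, against 69.1 to 109 and 61.2 to 66.3 in L-Kyn uncut tips. The 12 green tissue markers summed at 3 h to 25.6 and 39.5 CPM in L-Kyn cut tips, against 47.2 to 62.8 in L-Kyn uncut tips, and at 6 h to 99.2 to 266 CPM in L-Kyn cut tips, against 247 to 457 in L-Kyn uncut tips. These green tissue sums overlap at 6 h, and edgeR called 0 of the 12 markers at either time with or without the library labelled replicate 2. The part of these tissues in the members' values was not tested.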

How the data were processed

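Root tip RNA was sequenced as 18 3′ QuantSeq libraries, in 7 groups taken from the titles. The authors deposited 1 table of whole-number counts per locus; per the submitters' processing notes, Bowtie2, HTSeq and DESeq2 were used with TAIR10, versions and settings not given in the sources used here. HTSeq's 3 summary lines (46.4 to 83.2% low quality, 3.75 to 15.1% no feature and 0.0918 to 0.329% ambiguous of a library's total) entered neither library sizes nor tests, and all columns were mapped. The 3′ counts do not depend on gene length as whole-transcript counts do, so levels are compared between samples and not between genes. Strand use in counting is not given.

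Members were found by the rule with a pseudocount of 1. Tests used edgeR 4.0.16 (quasi-likelihood, TMM, filterByExpr, Benjamini-Hochberg at 0.05 over all loci tested) in R 4.3.3 on the 10 L-Kyn libraries in 4 groups, so that no library that chose a member was in a fit. DESeq2 1.42.0, no filter, a mean of 5 CPM or more, all 18 libraries, only the groups compared, a replicate block and leaving out libraries were alternatives, and the code was tested on simulated counts. Intervals of counting error are not given, and depth limits loci of few counts. Tables were handled in Python 3.11.15 with pandas 2.3.3 and matplotlib 3.10.9. Promoters and gene annotation came from RefSeq's TAIR10.1.

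The members and the gene lists were chosen with earlier results of these data known. Named are the 12 members with a symbol and the highest r3, up to 4 members of each list with 3 or more members, up to 6 called members in each direction with a mean of 10 CPM or more, and the promoters described. Other names, the role groups, the fits on top of leaving out the library labelled as L-Kyn cut 3 h replicate 2 and the promoters with CGCGT were chosen after values were seen.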

Additional observations from a re-analysis of the deposited data

Results flagged for a closer look

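The difference between both cut differences, 6 h minus 3 h under L-Kyn, was called by edgeR for 17 members when the library labelled as L-Kyn cut 3 h replicate 2 was left out. All were lower. Among the named ones its log2 value was -7.12 for LTI78 and -3.14 for HVA22D, and -3.61 for the dehydrin gene ERD10. It was -6.42 for AOC2 of jasmonate synthesis, -5.46 for HSP23.6-MITO and -3.85 for AT1G53540, both small heat shock genes. For the zinc finger genes STZ and RHL41 it was -5.31 and -3.58. AT4G29780, annotated as a nuclease, had -4.41 and AT4G18280, a glycine-rich protein gene, -3.81. Part of each value lies in uncut tips, whose fitted level was higher at 6 h than at 3 h. The log2 difference of 6 h minus 3 h was -3.30 in cut tips and 3.83 in uncut tips for LTI78, and -2.93 in cut tips and 3.49 in uncut tips for AOC2. It was -1.81 in cut and 3.5 in uncut tips for STZ, -1.08 in cut and 2.50 in uncut tips for RHL41, and -2.61 in cut and 2.86 in uncut tips for HSP23.6-MITO. For HVA22D it was -2.40 in cut and 0.74 in uncut tips. Hours and the set of libraries in the table cannot be told apart. At 3 h each of these values rests on 1 L-Kyn cut library, and with the library labelled as replicate 2 edgeR called none.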

How the results depend on the processing

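The library labelled as L-Kyn cut 3 h replicate 2 decided most counts, and the cause was not tested. For members higher at 3 h (0 with all 10 L-Kyn libraries) DESeq2 gave 12, no filter 23 and leaving out 1 library 0 to 96. Without L-Kyn cut 3 h replicate 2 the 96 became 59 among loci with a mean of 5 CPM or more, and 82 to 112 on leaving out another. With L-Kyn cut above uncut tips at 3 h in every library, 29 members became 172 without it. The share of all loci went from 10.3% to 30.2%. The 4 members below became 7, where the share of all loci went from 6.27% to 28.7%. With 1 cut library fewer, such a separation is easier to reach for any locus.

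For members higher at 6 h (4) DESeq2 gave 19, no filter 15, all 18 libraries 2, only the groups compared 38, the 100 loci with the highest r3 2, and leaving out 1 library 0 to 49, with 0 to 1 lower. Without L-Kyn cut 3 h replicate 2 the 49 became 8 to 60 on leaving out another, and the 1 lower became 0 in DESeq2 and in the filter on 5 CPM, and 0 to 1 on leaving out another.

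For the difference between the times (0 in either direction), leaving out 1 library changed the counts of members only for the L-Kyn cut 3 h replicates. The members' median log2 value was -0.94 without replicate 2 and 1.57 without replicate 1, against 0.03 and 0.04 over all loci tested. For cut tips, 6 h against 3 h, these medians were -1.46 and 0.87, against 0.03 and -0.0008. Without L-Kyn cut 3 h replicate 2 the 17 lower became 30 with no filter and 9 to 27 on leaving out another. In cut tips, 6 h against 3 h, the 3 lower became 1 with all 18 libraries and 2 to 55 on leaving out 1 library, with 0 to 27 higher. The 55 became 33 in DESeq2, 35 in the filter on 5 CPM and 37 to 72 on leaving out another. In uncut tips the 4 higher became 0 with all 18 libraries, 12 with only the groups compared and 0 to 15 on leaving out 1 library, and the 15 lower became 24 in DESeq2, 4 with all 18 libraries, 41 with only the groups compared and 0 to 36. Without L-Kyn cut 3 h replicate 2 the counts there were 6 to 18 higher and 6 to 41 lower.

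Replicate numbers did not pair libraries: of 13 pairs with the same number, 2 had a correlation of deviations over 0.1. With a replicate block the counts were 0 at 3 h, 0 higher at 6 h, 0 for the difference between the times, 2 lower in cut tips and 1 higher and 10 lower in uncut tips. Without L-Kyn cut 3 h replicate 2 the block gave 80 higher at 3 h, 32 higher and 0 lower at 6 h, 1 lower for the difference between the times, 21 lower in cut tips, and 10 higher and 22 lower in uncut tips.

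Of the log2 values of named members under other settings, 1536 kept their direction and side of the threshold, 102 newly passed it, 35 no longer did, and 0 changed direction among called values. The share of ACGTGTC was 2.02% among the 100 loci with the highest r3, below the 4.04% of all loci. Members with a few counts per library are limited by depth, and 3 h values of L-Kyn cut tips by the number of libraries.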
